A study of Mus musculus with 8 samples.

Results

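The 47 genes described here encode soluble enzymes of the lysosome, membrane proteins of its wall and subunits of the proton pump that acidifies it. They were chosen by gene symbol, with earlier results of these data known, from among the 18635 genes of the deposited table, and all 47 were found in it. RNA was sequenced from TEMs, which are bone marrow-derived macrophages (BMDMs) cultured for 24 h in tumour-conditioned medium (AE17-TCM) that cells of AE17, a mouse mesothelioma line, had conditioned. The BMDMs came from C57BL/6 mice of 6 to 8 weeks of age and had grown for 7 days in medium with 20% L929 supernatant. The 4 control samples were *Phgdh* fl/fl TEMs, and the other 4 were *Phgdh* fl/fl *Cx3cr1*-Cre TEMs, called Cre TEMs here, so that both groups carried the floxed *Phgdh* alleles and both received AE17-TCM. Cre was driven by the *Cx3cr1* locus in the Cre mice, which were *Cx3cr1* cre/+ where the controls were *Cx3cr1* +/+, and a difference between the groups therefore combines the deletion of *Phgdh* with the Cre allele. The authors give n = 4 biologically independent samples, while the labels do not say whether samples came from separate animals. The p-values measure the spread between these samples only.

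Lysosomes take up material from endocytosis, phagocytosis and autophagy and break it down with acid hydrolases. Macrophages are rich in lysosomes, since degrading engulfed cells and particles is a main task of theirs. The vacuolar proton pump (V-ATPase) couples the hydrolysis of ATP in its cytosolic V1 sector to proton transport through its membrane-bound V0 sector, and the low pH it creates is needed by most of the hydrolases. Many lysosomal genes carry the E-box CACGTG near their start, often inside a longer element that the MiT/TFE transcription factors (TFEB, TFE3, MITF and TFEC) bind.

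The comparison asks how the lysosomal transcripts of tumour-conditioned macrophages differed when *Phgdh*, the gene of the first enzyme of de novo serine synthesis, was deleted. Between 38219563 and 47027420 reads per sample had been counted on genes. *Phgdh* was at 117 ± 9.82 normalized counts (SD, n = 4), that is reads divided by the size factor of the sample, in control TEMs and at 27.1 ± 9.39 in Cre TEMs (log2 fold change -2.15, limma adjusted p = 5.1e-08). *Cx3cr1* was at 1075 ± 94.2 and 660 ± 32.2 (log2 fold change -0.70, limma adjusted p = 1.9e-09), in mice in which 1 *Cx3cr1* allele is the cre allele. The macrophage genes *Lyz2*, *Csf1r*, *Adgre1* and *Mertk* were abundant in both groups, with means of 719688 and 705962, 85156 and 84084, 136117 and 128439, and 4494 and 4560 normalized counts. *Adgre1* was lower in Cre TEMs, as were the macrophage genes *Itgam*, *Cd14* and *Fcgr1*, which are given below.

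Promoter sequence was read for 37 of the 47 genes, from RefSeq on the mouse build GRCm38.p6, as the 250 bases before and the 50 bases after the start of each gene. The E-box CACGTG, which reads the same on both strands, was present in 13 of the 37 (35.1%), against 11.9% of the 9710 tested genes with a promoter sequence and 8.09% of all 27025 genes with one. The longer forms TCACGTG and GTCACGTG, each of which contains the E-box and was searched on both strands, were present in 29.7% and 24.3% of the 37, against 7.1% and 4.9% of the tested genes. Among the lysosomal promoters the E-box stood in 10 of the 19 whose gene was higher in Cre TEMs, in 2 of the 5 whose gene was lower and in 1 of the 13 whose gene was not called, by the test described below. The same letters stood in 11.3% of the tested genes that were higher, 13.5% of those that were lower and 11.5% of those not called. A match is a stretch of letters in a window and not a measured binding site. The stretches shown next are free of annotated exons of their own gene, run 5′ to 3′ in the sense of the gene, and carry the E-box in capitals. Exons of other genes were not checked. They are shown because they span the cases, with *Lamp1*, *Gla*, *Glb1* and *Gaa* higher in Cre TEMs, *Lgmn* lower and *Atp6v0b* not called.

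Lamp1 (chr8:13159043-13159160, plus strand): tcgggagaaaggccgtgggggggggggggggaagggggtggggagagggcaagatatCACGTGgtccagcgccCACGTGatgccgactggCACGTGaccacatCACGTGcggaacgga
Gla (chrX:134601137-134601255, minus strand): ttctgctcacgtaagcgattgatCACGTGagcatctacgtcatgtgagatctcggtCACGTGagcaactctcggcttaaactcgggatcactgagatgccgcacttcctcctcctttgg
Glb1 (chr9:114400973-114401075, plus strand): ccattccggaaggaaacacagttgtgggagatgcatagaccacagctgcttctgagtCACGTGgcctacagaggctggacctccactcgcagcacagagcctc
Gaa (chr11:119267766-119267885, plus strand): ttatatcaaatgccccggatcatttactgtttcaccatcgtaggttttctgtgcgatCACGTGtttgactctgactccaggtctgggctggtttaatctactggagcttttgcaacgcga
Lgmn (chr12:102439093-102439198, minus strand): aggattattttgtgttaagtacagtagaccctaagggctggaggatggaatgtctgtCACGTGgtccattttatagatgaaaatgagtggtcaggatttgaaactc
Atp6v0b (chr4:117887334-117887422, minus strand): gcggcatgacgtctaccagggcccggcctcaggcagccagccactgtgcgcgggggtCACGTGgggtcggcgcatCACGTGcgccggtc

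All the windows of this set hold at least 1 E-box, and that of *Lamp1* holds 4. They lie before the first annotated base of the gene in GENCODE M21, except that of *Lgmn*, which lies before the RefSeq start but in an intron of the longer gene that GENCODE gives. The set thus includes E-boxes of genes that rose, of a gene that fell and of a gene that was not called.

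Across the genes, the difference was broad and small. All 47 passed the filter of a mean of at least 10 normalized counts and were tested among 13629 genes with limma on log2(normalized count + 1), where a gene is called at an adjusted p under 0.05. Of the 47, 28 were called, 22 higher and 6 lower in Cre TEMs. Over all genes tested, 41% were called, 20.8% as higher and 20.3% as lower, so the called lysosomal genes leaned to the higher side while all called genes were split almost evenly. The median log2 fold change of the 47 was 0.049, against -0.0018 over all genes tested. For 23 of the 47 genes, and for 36.7% of all genes tested, no value of one group lay within the range of the other. The members are abundant, and their median standard error on the log2 scale was 0.025, against 0.048 over all genes tested, and the part of this precision in the count of calls was not tested. The called differences were small in size, with a median absolute log2 fold change of 0.14, against 0.19 over all called genes. Only 4 of the 47 differed by more than 20% between the group means (*Atp6v0d2*, *Ctsl*, *Ctsk* and *Atp6v0c*), and 34 differed by less than 10%, 15 of which were called. RNA was taken from whole cultures, in which fewer cells of a type and less RNA per cell cannot be told apart.

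**Figure D1:**
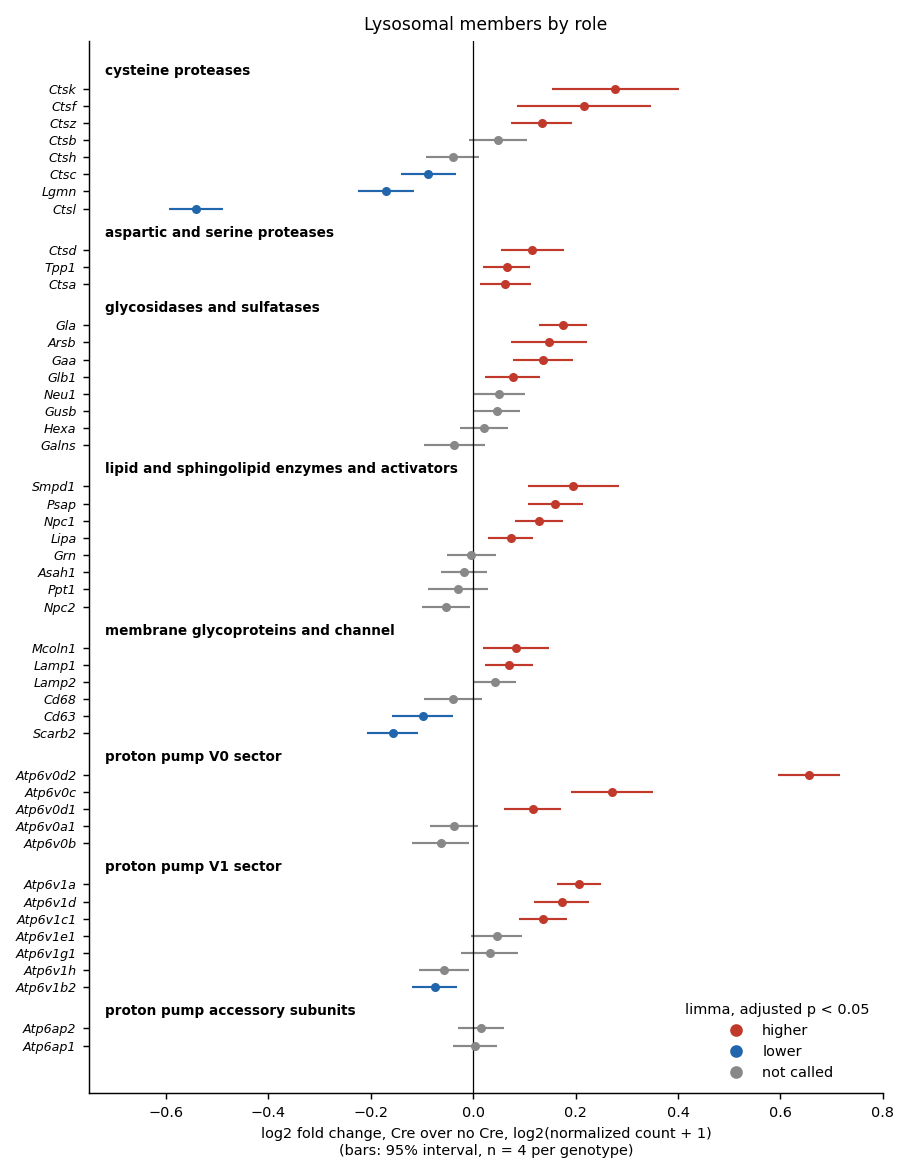
Log2 fold change (Cre TEMs over control TEMs) of each of the 47 genes, grouped by role, with its 95% interval (limma, n = 4 per genotype). Red points were called higher, blue points lower and grey points were not called. *Atp6v0d2* at 0.66 and *Ctsl* at -0.54 stand at the ends, and most other points lie between -0.2 and 0.3.

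The members differed widely in level. On a scale per length (FPKM, reads scaled to the exon length of the gene and to the total of the sample, computed from the recovered reads), *Psap*, the precursor of the saposins that help sphingolipid hydrolases, was the highest at 3520 ± 60.8 FPKM in control TEMs and 3976 ± 54.5 in Cre TEMs (SD, n = 4). It was followed by the protease genes *Ctsb* at 2112 and 2207 FPKM and *Ctsd* at 1625 and 1779 FPKM. *Cd68*, a macrophage lysosomal glycoprotein, came next at 950 and 934 FPKM. In control TEMs *Ctsl* came after it at 676 ± 15.4 FPKM, and *Lamp1* followed at 652 ± 12.7, a level close to that of *Ctsl*. In Cre TEMs *Ctsl* stood at 470 ± 11.4 FPKM, under *Lamp1* (692 ± 7.44), *Ctsz* (628 ± 21.1), *Grn* (581 ± 11.8) and *Hexa* (507 ± 11.2). The lowest levels were those of *Smpd1*, *Ctsk*, *Mcoln1*, *Arsb* and *Ctsf*, all under 10 FPKM in both groups. The order depends on the length used, which joins all annotated exons of a gene. This was 6489 bases for *Ctsl*, 2351 for *Ctsd* and 1257 for *Cd68*. By normalized count *Ctsl* stood above *Ctsd* in control TEMs (190108 against 165547). Together the 47 genes made up 5.24% to 5.38% of the reads in control samples and 5.39% to 5.53% in Cre samples. With *Ctsl*, the member with the largest fall, left out, the shares were 4.82% to 4.94% and 5.08% to 5.23%. As shares of the summed FPKM they were 4.88% to 4.97% and 5.19% to 5.32%. On each of these shares every Cre sample lay above every control sample, by a margin that was narrow for the reads of all 47. The summed normalized counts of the 47 overlapped, at 2266747 to 2334947 in control and 2309724 to 2373416 in Cre samples.

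**Figure D2:**
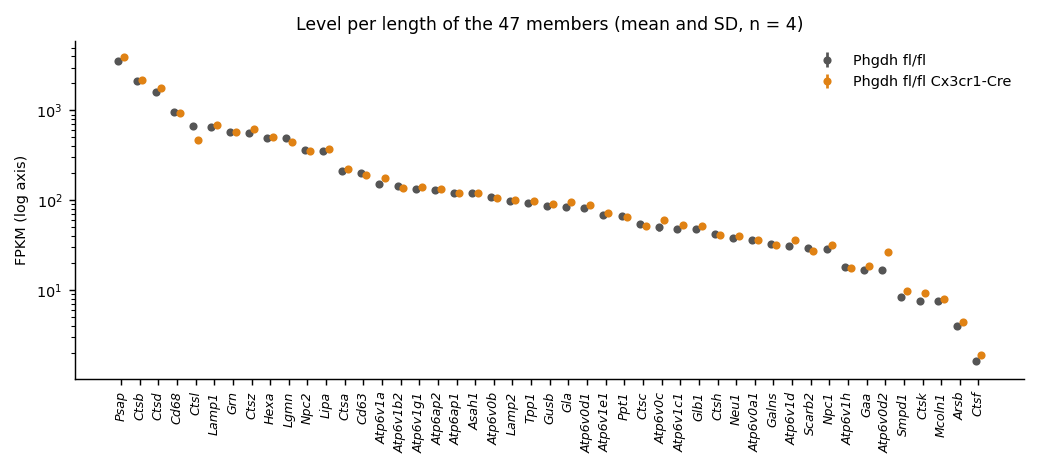
Level per length (FPKM, log axis) of the 47 genes in order of their level in control TEMs, as mean and SD of 4 samples per genotype. The levels run from 3520 FPKM (*Psap*) to 1.6 FPKM (*Ctsf*) in control TEMs, and the order of the genotypes is most visible for *Ctsl* and *Atp6v0d2*.

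The cysteine proteases split, 3 of 8 rising (*Ctsk*, *Ctsf* and *Ctsz*), 3 falling (*Ctsl*, *Lgmn* and *Ctsc*) and *Ctsb* and *Ctsh* not called. Of these 8 genes 75% were called, against 41% of all genes tested, and their median log2 fold change was 0.0044. *Ctsl*, a cathepsin with endopeptidase activity that also trims the invariant chain of MHC class II (ENSMUSG00000021477, chr13:64359337-64370890, minus strand), read 183671, 191271, 191113 and 194378 normalized counts in the 4 control samples and 127919, 130760, 134684 and 129221 in the 4 Cre samples. The lowest control sample lay far above the highest Cre sample, and *Ctsl* fell by 31.3% (log2 fold change -0.54 ± 0.025 SE, limma adjusted p = 5.4e-13). Among all genes its rank by normalized count was 12 to 14 in control samples and 19 or 20 in Cre samples. An antisense gene of low level, Gm47123, covers 26.9% of the exon bases of *Ctsl*; it averaged 13.3 and 1.56 normalized counts, 0.00701% of the control level of *Ctsl* in the controls.

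*Lgmn*, the asparaginyl endopeptidase that processes cathepsin precursors (ENSMUSG00000021190, chr12:102394084-102439813, minus strand), read 47616, 50717, 50133 and 50515 normalized counts in control samples and 42657, 44971, 45775 and 43445 in Cre samples. The groups did not overlap, and the log2 fold change was -0.17 ± 0.026 (SE, limma adjusted p = 1.8e-05). *Ctsc*, an aminopeptidase that activates granule serine proteases, had the smallest fall of these proteases, from 13511 ± 305 to 12713 ± 453 normalized counts, with overlapping groups (log2 fold change -0.09, limma adjusted p = 0.00897).

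*Ctsk*, a collagen-degrading cathepsin best known from osteoclasts (ENSMUSG00000028111, chr3:95499256-95509362, plus strand), read 495, 461, 552 and 481 normalized counts in control samples and 576, 600, 585 and 648 in Cre samples. All Cre samples lay above all controls, and the log2 fold change was 0.28 ± 0.059 (SE, limma adjusted p = 7.1e-04). *Ctsk* lies 2.82 Mb from *Phgdh* on chromosome 3, and 25 of its 65 tested neighbours within 1 Mb were called, 2 of them by more than 1 on the log2 scale; over all genes tested 41% were called. *Ctsf*, another papain-like cathepsin (ENSMUSG00000083282, chr19:4855130-4860918, plus strand), read 368, 327, 354 and 346 normalized counts in control samples and 405, 376, 420 and 420 in Cre samples. Its groups were separated by a small gap (log2 fold change 0.22 ± 0.063 SE, limma adjusted p = 0.00824). *Ctsz*, a carboxypeptidase, was more abundant and rose from 35405 ± 1422 to 38838 ± 1381 normalized counts (log2 fold change 0.13, limma adjusted p = 6.9e-04). *Ctsb*, the most abundant protease of the set, was at 553770 ± 8784 and 572744 ± 9011 normalized counts and was not called (log2 fold change 0.05, 95% interval -0.01 to 0.11), nor was the aminopeptidase *Ctsh* (log2 fold change -0.04, 95% interval -0.09 to 0.01).

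The aspartic protease *Ctsd* and the serine proteases *Tpp1* and *Ctsa* were all called higher, by small amounts and with groups that overlapped. Over all genes tested 20.8% were called higher. *Ctsd* (ENSMUSG00000007891, chr7:142375911-142388038, minus strand) read 160850, 161955, 166539 and 172846 normalized counts in control samples and 185541, 174154, 172005 and 185828 in Cre samples. Replicate 3 of the Cre samples lay under the highest control, and the log2 fold change was 0.12 ± 0.03 (SE, limma adjusted p = 0.00355). Gm49369, annotated on the same strand, covers 34.4% of the exon bases of *Ctsd* and has no values among the deposited genes. Its part in the counts and the level per length of *Ctsd* was not tested. *Ctsa*, the carboxypeptidase that also protects beta-galactosidase and neuraminidase (ENSMUSG00000017760, chr2:164832873-164841032, plus strand), read 42762, 43229, 42741 and 44637 normalized counts in control samples and 45698, 44462, 43969 and 46958 in Cre samples. Its log2 fold change of 0.06 ± 0.024 (SE) only just passed the test (limma adjusted p = 0.0416), and the call ended when any of 5 samples was left out. *Pltp*, on the opposite strand, overlaps 10.5% of the exon bases of *Ctsa* and was itself lower (log2 fold change -0.39, limma adjusted p = 1.3e-11); the strand setting of the authors' counting is not given in the sources used here. *Tpp1*, a tripeptidyl peptidase, went from 20724 ± 400 to 21690 ± 408 normalized counts (log2 fold change 0.07, limma adjusted p = 0.0215), and this call ended when any of 5 samples was left out.

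Of the 8 glycosidases and sulfatases, which remove sugars and sulfate groups from glycans and glycolipids, 4 rose (*Gla*, *Arsb*, *Gaa* and *Glb1*) and none fell, with a median log2 fold change of 0.06. The share called was 50%, near the 41% of all genes tested. *Gla*, alpha-galactosidase A, which clears globosides (ENSMUSG00000031266, chrX:134588149-134601125, minus strand), read 12015, 11839, 11944 and 12120 normalized counts in control samples and 13936, 13243, 13263 and 13656 in Cre samples. The 4 controls spread little and all Cre samples lay well above them (log2 fold change 0.17 ± 0.023 SE, limma adjusted p = 2.3e-06). *Arsb*, arylsulfatase B, went from 1037 ± 14.4 to 1150 ± 14 normalized counts and *Gaa*, acid alpha-glucosidase, which degrades glycogen, from 3456 ± 75.8 to 3798 ± 118, both with groups that did not overlap. *Glb1*, beta-galactosidase, rose less (log2 fold change 0.08, limma adjusted p = 0.0205) and with overlapping groups; it lies 5.55 Mb from *Cx3cr1* on chromosome 9, and the call ended without either of 2 samples. *Galns*, a sulfatase of keratan and chondroitin sulfate (ENSMUSG00000015027, chr8:122578242-122611463, minus strand), had the lowest value of the group and was not called. It read 3638, 3686, 3645 and 3801 normalized counts in control samples and 3456, 3606, 3580 and 3755 in Cre samples, ranges that overlap (log2 fold change -0.04 ± 0.029 SE). *Hexa*, *Gusb* and *Neu1*, at 0.02, 0.05 and 0.05 on the log2 scale, were not called either.

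In the group that handles lipids and sphingolipids, 4 of 8 rose (*Smpd1*, *Psap*, *Npc1* and *Lipa*), none fell, and the median log2 fold change was 0.03. That is 50% called, near the 41% of all genes tested. *Psap* (ENSMUSG00000004207, chr10:60277627-60302597, plus strand) read 416341, 426119, 410201 and 421569 normalized counts in control samples and 474547, 467425, 457953 and 471529 in Cre samples. The gap between the groups was wider than either group's range (log2 fold change 0.16 ± 0.026 SE, limma adjusted p = 4.1e-05). *Smpd1*, acid sphingomyelinase, which makes ceramide from sphingomyelin (ENSMUSG00000037049, chr7:105554360-105558389, plus strand), read 1222, 1259, 1124 and 1280 normalized counts in control samples and 1435, 1362, 1339 and 1453 in Cre samples. Its groups did not overlap (log2 fold change 0.20 ± 0.043 SE, limma adjusted p = 8.7e-04). *Smpd1* and *Tpp1* lie near each other on chromosome 7, where 10 of 19 and 11 of 20 tested neighbours within 1 Mb were called (41% over all genes tested), 3 in each case by more than 1 on the log2 scale in either direction.

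Of the cholesterol genes of this group, *Lipa* and *Npc1* rose and *Npc2* did not pass the test. *Lipa*, acid lipase, which frees cholesterol from its esters, rose from 102765 ± 719 to 108115 ± 696 normalized counts (log2 fold change 0.07, limma adjusted p = 0.00779). *Npc1*, the membrane protein that exports that cholesterol, rose from 14042 ± 336 to 15344 ± 219 (log2 fold change 0.13, limma adjusted p = 9.8e-05). *Npc2*, the soluble protein that hands cholesterol to NPC1 (ENSMUSG00000021242, chr12:84754562-84773152, minus strand), was not called. It read 83580, 84745, 86142 and 85022 normalized counts in control samples and 83284, 80299, 80304 and 83265 in Cre samples, and the lowest control lay just above the highest Cre sample (log2 fold change -0.05 ± 0.022 SE, limma adjusted p = 0.061). Acid ceramidase *Asah1*, the palmitoyl thioesterase *Ppt1* and progranulin *Grn*, at -0.02, -0.03 and -0.004 on the log2 scale, were not called. *Ppt1* shares 3.51% of its exon bases with *Cap1* on the opposite strand, which had 549% of its level and was lower (log2 fold change -0.21, limma adjusted p = 7.7e-08).

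The membrane proteins also split, with *Mcoln1* and *Lamp1* higher, *Scarb2* and *Cd63* lower and *Lamp2* and *Cd68* not called, at a median log2 fold change of 0.0012. The share called was 66.7%, against 41% of all genes tested. *Scarb2*, also called LIMP-2, which carries glucocerebrosidase to the lysosome (ENSMUSG00000029426, chr5:92441314-92506833, minus strand), read 7948, 7886, 8360 and 8094 normalized counts in control samples and 7162, 7280, 7172 and 7333 in Cre samples. All Cre samples lay under all controls (log2 fold change -0.16 ± 0.024 SE, limma adjusted p = 1.7e-05). *Cd63*, a tetraspanin of late endosomes and lysosomes, went from 31971 ± 1618 to 29825 ± 415 normalized counts (log2 fold change -0.10, limma adjusted p = 0.00773), with replicate 1 of the controls inside the range of the Cre samples.

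*Mcoln1*, a calcium channel of the lysosomal membrane also called TRPML1 (ENSMUSG00000004567, chr8:3500457-3515232, plus strand), read 2407, 2402, 2381 and 2587 normalized counts in control samples and 2572, 2623, 2561 and 2600 in Cre samples. Replicate 4 of the controls lay inside the Cre range, and the call (log2 fold change 0.08 ± 0.031 SE, limma adjusted p = 0.0339) ended when any of 6 samples was left out. *Lamp1*, a main glycoprotein of the lysosomal wall, rose from 75626 ± 1589 to 79391 ± 975 normalized counts (log2 fold change 0.07, limma adjusted p = 0.0149), a call that ended without replicate 4 of the Cre samples. Its relative *Lamp2* was at 40472 ± 423 and 41688 ± 250 normalized counts, with groups that did not overlap, and was not called (log2 fold change 0.04, limma adjusted p = 0.0956). *Cd68* was not called (log2 fold change -0.04, 95% interval -0.10 to 0.02).

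**Figure D3:**
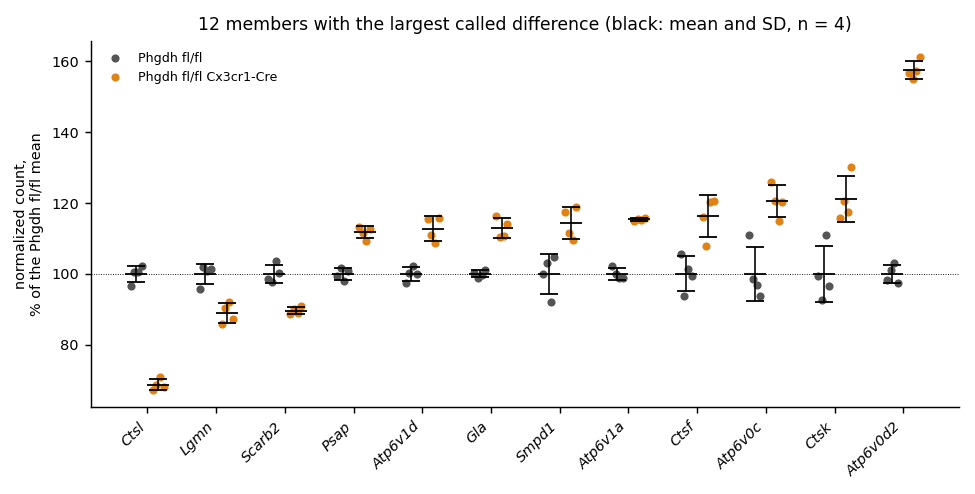
Normalized count of each sample, in percent of the mean of the control TEMs, for the 12 genes with the largest called difference, with mean and SD (n = 4). The vertical axis does not start at 0. The Cre mean of *Ctsl* fell by 31.3% and that of *Atp6v0d2* was 57.6% higher, and in none of the 12 genes do the groups overlap.

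Of the proton pump genes, 6 of 14 were called higher (*Atp6v0d2*, *Atp6v0c*, *Atp6v0d1*, *Atp6v1a*, *Atp6v1d* and *Atp6v1c1*), 1 lower (*Atp6v1b2*) and 7 not called, a share of 50% called that is near the 41% of all genes tested. In the V0 sector 3 of 5 rose (60% called, against 41% of all genes tested) and the median log2 fold change was 0.12. *Atp6v0d2* (ENSMUSG00000028238, chr4:19876841-19922605, minus strand), the form of the d subunit that is typical of osteoclasts and some macrophages, had the largest difference of the 47. It read 1922, 1977, 2017 and 1907 normalized counts in control samples and 3066, 3032, 3077 and 3151 in Cre samples. The groups lay far apart with little spread in either, and *Atp6v0d2* was 57.6% higher in Cre TEMs (log2 fold change 0.66 ± 0.029 SE, limma adjusted p = 3.1e-13). *Atp6v0d1*, the broadly expressed form of the same subunit, rose less, from 6328 ± 214 to 6858 ± 170 normalized counts (log2 fold change 0.12, limma adjusted p = 0.00152).

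The balance of the d subunits therefore moved. The log2 ratio of *Atp6v0d2* to *Atp6v0d1* was -1.69, -1.62, -1.71 and -1.75 in control samples and -1.17, -1.16, -1.12 and -1.17 in Cre samples. These ranges are well apart, with a difference of 0.54 between the means (exact two-sided permutation test over 70 labelings, p = 0.0286, the smallest that 4 against 4 samples can give). Per length, *Atp6v0d2* had 0.204 ± 0.0073 of the FPKM of *Atp6v0d1* in control TEMs and 0.297 ± 0.0043 in Cre TEMs (SD, n = 4), so that *Atp6v0d1* remained the more abundant form.

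*Atp6v0c*, the proteolipid that forms most of the rotating proton-carrying ring (ENSMUSG00000024121, chr17:24163866-24169702, minus strand), read 8074, 7172, 7049 and 6831 normalized counts in control samples and 9173, 8791, 8368 and 8762 in Cre samples. Replicate 1 of the controls was high within its group and still under every Cre sample (log2 fold change 0.27 ± 0.038 SE, limma adjusted p = 7.2e-06). Its processed pseudogene *Atp6v0c-ps2* was at 27.6 and 31 normalized counts, 0.379% of its control level. *Atp6v0b*, another proteolipid of the ring (ENSMUSG00000033379, chr4:117884326-117887333, minus strand), was the lowest of the sector. It read 9170, 9697, 10079 and 9705 normalized counts in control samples and 9459, 9334, 9025 and 9158 in Cre samples, overlapping ranges, and was not called (log2 fold change -0.06 ± 0.027 SE, limma adjusted p = 0.0643). *Atp6v0a1*, a subunit of the proton path, was not called (log2 fold change -0.04, 95% interval -0.08 to 0.01).

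In the V1 sector 3 of 7 rose and 1 fell, at a median log2 fold change of 0.05. The share called was 57.1%, against 41% of all genes tested. The catalytic hexamer of the sector was divided. *Atp6v1a*, the catalytic A subunit (ENSMUSG00000052459, chr16:44085402-44139705, minus strand), read 40524, 39586, 39083 and 39114 normalized counts in control samples and 45545, 45705, 45592 and 45839 in Cre samples. The Cre samples were nearly equal to each other and all above the controls (log2 fold change 0.21 ± 0.021 SE, limma adjusted p = 7e-08). *Atp6v1b2*, the B subunit that alternates with A in the hexamer (ENSMUSG00000006273, chr8:69088646-69113711, plus strand), read 32442, 32757, 32466 and 33531 normalized counts in control samples and 30490, 31079, 31674 and 31269 in Cre samples. It was lower in all Cre samples by a small amount (log2 fold change -0.08 ± 0.021 SE, limma adjusted p = 0.00682).

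*Atp6v1d*, the D subunit of the central shaft (ENSMUSG00000021114, chr12:78840725-78861638, minus strand), read 6065, 6239, 6372 and 6229 normalized counts in control samples and 7198, 6919, 6762 and 7204 in Cre samples. All Cre samples were above all controls (log2 fold change 0.17 ± 0.026 SE, limma adjusted p = 1.5e-05). *Atp6v1c1*, which links the sectors and takes part in their assembly, rose from 11652 ± 255 to 12801 ± 214 normalized counts (log2 fold change 0.14, limma adjusted p = 5.5e-05). The subunits *Atp6v1e1*, *Atp6v1g1* and *Atp6v1h*, of the outer stalks and the regulatory arm, were at 0.05, 0.03 and -0.06 on the log2 scale and were not called.

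Neither accessory subunit was called. *Atp6ap1* (ENSMUSG00000019087, chrX:74297097-74304721, plus strand) read 15580, 15621, 15874 and 15817 normalized counts in control samples and 15757, 15536, 15783 and 15953 in Cre samples. *Atp6ap2*, also known as the prorenin receptor (ENSMUSG00000031007, chrX:12587801-12617049, plus strand), read 14956, 14580, 15057 and 14562 in control samples and 14922, 14711, 15028 and 15144 in Cre samples. The groups overlapped for both genes, and the log2 fold changes were 0.0031 ± 0.021 and 0.02 ± 0.021 (SE), with 95% intervals of -0.04 to 0.05 and -0.03 to 0.06.

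**Figure D4:**
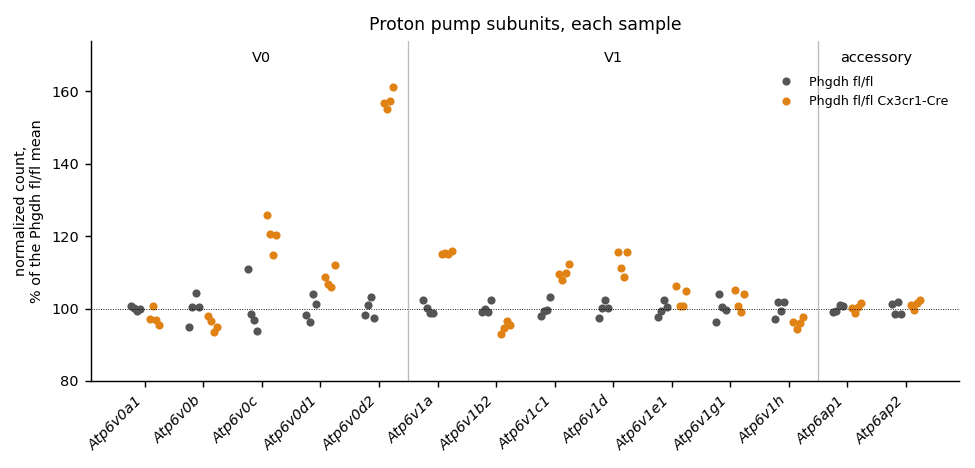
Normalized count of each sample, in percent of the mean of the control TEMs, for the 14 proton pump genes in order of sector. The vertical axis does not start at 0. *Atp6v0d2* stands apart at 57.6% above the control mean, the Cre samples of *Atp6v0c*, *Atp6v0d1*, *Atp6v1a*, *Atp6v1c1* and *Atp6v1d* lie above all their controls, and those of *Atp6v1b2* lie below.

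Other genes of the pathway were listed beside the 47. Of 109 such genes, 101 were in the table, 97 passed the filter and 61 were called, 43 higher and 18 lower, with a median log2 fold change of 0.06. That is 62.9% called, against 41% of all genes tested, of which 20.8% were higher and 20.3% lower. This median lay a little above that of the 47 genes (0.049) and of all genes tested (-0.0018). Of the other membrane proteins and transporters, 13 of 23 rose and 3 fell (median log2 fold change 0.14). The share called in this list was 69.6%, against 41% of all genes tested. *Gpnmb*, a glycoprotein that macrophages raise under lysosomal stress, was at 402918 and 516041 normalized counts (log2 fold change 0.36, limma adjusted p = 2.2e-09). *Laptm4b* was the highest of this list at 0.45 (limma adjusted p = 9e-06), and *Tpcn2*, a cation channel of lysosomes, the lowest at -0.27 (limma adjusted p = 1.5e-06).

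Hydrolases outside the 47 moved likewise in part, 12 of 26 rising and 5 falling. The share called was 65.4% of these, 57.1% of other proteases and 40% of other pump genes, against 41% of all genes tested. *Plbd1* was the highest at 0.46 (limma adjusted p = 3.7e-07), and *Hgsnat*, an enzyme of heparan sulfate breakdown, the lowest of those called at -0.13 (limma adjusted p = 3.9e-04). Among other proteases 3 of 7 rose and 1 fell, *Napsa* being the highest at 0.25 (limma adjusted p = 1.9e-05) and *Ctso* the lowest at -0.09 (limma adjusted p = 0.024). *Ctss*, the abundant macrophage cathepsin that degrades the invariant chain, was at 167901 and 168665 normalized counts and was not called (log2 fold change 0.01). Of 5 other pump genes tested, *Tcirg1*, the a3 subunit, rose (0.18, limma adjusted p = 5.7e-06) and *Atp6v1f* fell (-0.11, limma adjusted p = 0.0041). The cystatins and stefins, which inhibit cysteine cathepsins, were few, and of the 4 tested *Cst7* rose (0.54, limma adjusted p = 0.0057) while *Stfa3* (-0.63, limma adjusted p = 0.0019) and *Cst3* (-0.06) fell. That is 75% called, against 41% of all genes tested.

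Regulators of lysosomal genes were also read. Of 10 genes of the MiT/TFE factors and their control, 6 rose and 2 fell (median log2 fold change 0.19). That is 80% called, against 41% of all genes tested. *Rragd*, a Rag GTPase that brings mTORC1 and MiT/TFE factors to the lysosome, was at 1195 ± 35.5 and 1825 ± 60.1 normalized counts (log2 fold change 0.61, limma adjusted p = 2.2e-11). *Tfec* (0.43), *Fnip2* (0.40), *Fnip1* (0.32), *Flcn* (0.20) and *Rragc* (0.18) also rose, while *Tfeb* (-0.11, limma adjusted p = 0.043) and *Tfe3* (-0.11, limma adjusted p = 0.0015) fell and *Mitf* was not called. Of 12 autophagy genes 5 rose and 1 fell, with the kinase gene *Ulk1* the highest at 0.34 (limma adjusted p = 4.9e-08) and *Becn1* the lowest of those called at -0.10 (limma adjusted p = 0.0022). Of 10 genes for sorting enzymes to the lysosome 2 rose and 3 fell, from *Sort1* at 0.24 (limma adjusted p = 7.3e-06) to *Gnptg*, of the enzyme that makes the mannose 6-phosphate tag, at -0.20 (limma adjusted p = 0.0015). In both of these lists 50% of the genes tested were called, near the 41% of all genes.

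**Figure D5:**
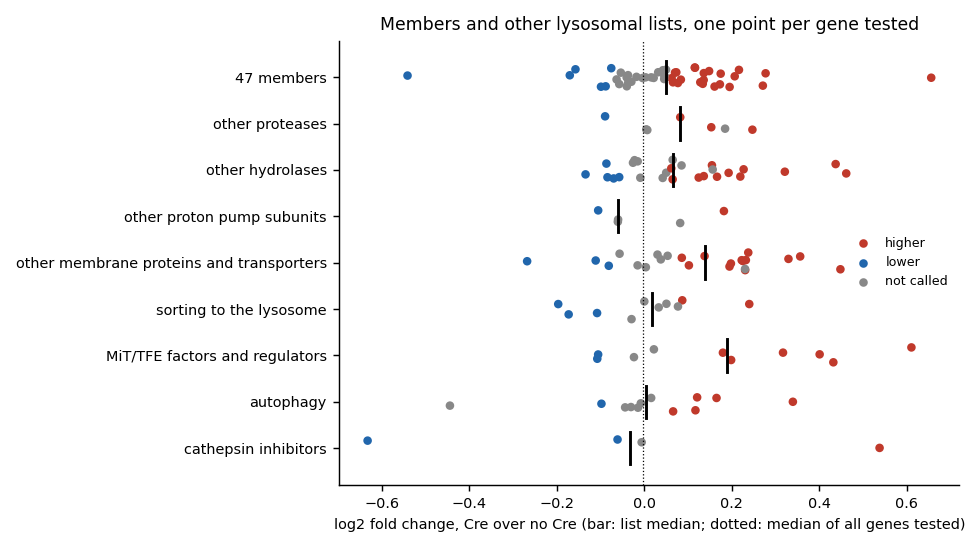
Log2 fold change (Cre TEMs over control TEMs) of every gene tested in the set of 47 and in 8 other lists, with the median of each list as a bar and the median of all genes tested as a dotted line. The medians of the membrane proteins and transporters (0.14) and of the MiT/TFE factors and regulators (0.19) lie farthest to the right.

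Markers of cell types that a bone marrow culture could hold were read beside these results. Of 7 macrophage markers none rose and 4 fell, *Fcgr1* (-0.40), *Cd14* (-0.32), *Itgam* (-0.19) and *Adgre1* (-0.08). That is 57.1% called, against 41% of all genes tested. The summed level of the 7 was 979409 to 1067651 normalized counts in control and 959648 to 1033106 in Cre samples. Most of this sum was *Lyz2*, which was not called, so the sum says little about the markers that fell. Osteoclast markers bear on *Atp6v0d2* and *Ctsk*, and 2 of the 5 tested rose, *Itgb3* from 317 ± 35.2 to 1036 ± 60.8 normalized counts (log2 fold change 1.71, limma adjusted p = 4.7e-14) and *Acp5* from 589 ± 39.4 to 735 ± 22.7 (log2 fold change 0.32, limma adjusted p = 3.6e-05). The share called was 40%, near the 41% of all genes tested. The other osteoclast genes were *Nfatc1* at 2026 and 2138 normalized counts, *Dcstamp* at 72.6 and 75.5 and *Ocstamp* at 12.7 and 8.77, none of them called, with *Oscar* at under 2 normalized counts in both groups and *Calcr* not in the table. The summed level of the list was 2879 to 3232 in control and 3897 to 4098 in Cre samples, and most of its rise was that of *Itgb3*. The part of this list in the rise of *Atp6v0d2* and *Ctsk* was not tested.

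Other cell types left few reads. None of 5 T cell and none of 4 erythroid markers was in the table, and neither were 5 of 6 mesothelial markers. Of 7 neutrophil markers only *S100a8* was in the table, and it was higher in Cre samples, at 576 to 631 normalized counts against 467 to 575 in control samples (log2 fold change 0.23, limma adjusted p = 0.0044). Of 4 B cell markers 2 were in it, at 197 to 253 and 131 to 167, nearly all of it *Cd79b* (log2 fold change -0.63). Dendritic cell markers summed to 43.7 to 71.6 and 66.5 to 91.5 and fibroblast markers to 22.1 to 36.2 and 19.8 to 49.6, with none of those tested called. The part of these cells in the lysosomal values was not tested.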

How the data were processed

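Total RNA of 8 TEM cultures was sequenced as single-end reads of 75 bp from directional libraries. Per the labels and the methods, the authors mapped the reads to mm10 with TopHat2, counted reads on genes with HTSeq 0.6 and used DESeq2 for the comparison. What the authors deposited for each sample is a signal: the count of a gene over the size factor of that sample. It is not divided by gene length, although named FPKM. Dividing by the value of 1 read gave whole reads for 100% of the 144353 values above 0 (within 0.01 of a whole number), and counting sets the precision of genes with few reads. The authors also deposited a mean, a log2 fold change with its error, a test score and p-values per gene, which were not used.

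Groups came from the labels. limma 3.58.1 in R 4.3.3 (eBayes with trend, two-sided, Benjamini-Hochberg over all genes tested) was run on log2(normalized count + 1) for the 13629 genes with a mean of at least 10, with no covariate. A fold change on this scale slightly understates that of low genes. Single values were compared by exact two-sided permutation in Python 3.11.15 (scipy 1.17.1). Lengths and positions came from GENCODE M21 (GRCm38, as mm10), and promoters from RefSeq; 10 of the 47 genes had none in the table used. The alternatives were a pseudocount of 0.1, no filter, quantile normalization, scaling to total reads, eBayes without trend, a replicate block, edgeR 4.0.16 and DESeq2 1.42.0 on the recovered reads, and leaving out each sample. The fit was tested on simulated data, with changes larger than most differences of the 47 genes, so that test does not bear on differences of their size. Values are given in full for the highest and the lowest gene of each role and for the 12 largest called differences, and in each other list the highest and the lowest called gene is named. *Ctss*, *Gpnmb*, *Cst3* and the further MiT/TFE genes were added after their values were seen. The members, the lists and the rules were chosen with earlier results of these data known.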

Additional observations from a re-analysis of the deposited data

Results flagged for a closer look

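In 3 of the 94 groups of 4 samples checked, 1 sample stood apart from the other three by most of the range of its group, where chance gives about 1 group in 20. All were control samples. *Hexa* was at 41696 normalized counts in replicate 1 of the control TEMs, with the others at 43031 to 43211. *Ppt1* was at 11223 in replicate 3, with the others at 10300.2 to 10419. *Mcoln1* was at 2587 in replicate 4, with the others at 2381 to 2407, so that this sample alone made the groups overlap. Neither *Hexa* nor *Ppt1* was called.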

How the results depend on the processing

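Over 16 alternatives, 18 of the 28 called genes kept their call in every one, and none of the 28 changed direction. The other 10 were *Ctsa* (lost in 7), *Tpp1* (6), *Mcoln1* (9), *Glb1* (4), *Lamp1* (2), *Ctsc* (2), *Cd63* (2), *Ctsd* (1), *Atp6v1b2* (1) and *Psap* (1). A call was gained by 8 genes: *Npc2* and *Lamp2* in 3 alternatives each, *Ctsb* (edgeR and DESeq2), *Gusb* and *Atp6v1h* in 2, and *Neu1*, *Atp6v1e1* and *Atp6v0b* in 1. The number of genes called ran from 20 (eBayes without trend) to 32 (scaled to total reads), and from 23 to 29 when 1 sample was left out. The median of all genes tested moved between -0.0122 (quantile normalization) and 0.0132 (scaled to total reads). Genes that were not called changed direction as follows: *Asah1* (0.0401), *Cd68* (0.0399) and *Grn* (0.0361) under quantile normalization, *Grn* also when scaled to total reads (0.0111) and between -0.015 and 0.0062 when 1 sample was left out, and *Atp6ap1* between -0.0029 and 0.0099 when 1 sample was left out. *Psap* held rank 6 in every sample, so that quantile normalization gave it 0 by construction. The d subunit difference stayed between 0.522 and 0.5632 without 1 sample, where p = 0.0571 is the smallest that the exact permutation test of 3 against 4 can give.

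Single samples decided 5 calls. *Ctsa* was lost without control replicate 1, 2 or 3 or Cre replicate 1 or 4 (log2 fold change 0.0449 to 0.0614). *Tpp1* was lost without control replicate 2 or 4 or Cre replicate 1, 3 or 4 (0.0557 to 0.0638). *Mcoln1* was lost without control replicate 1, 2 or 3 or Cre replicate 1, 2 or 4 (0.0712 to 0.0868). *Glb1* was lost without control replicate 2 (0.0629) or Cre replicate 4 (0.0596), and *Lamp1* without Cre replicate 4 (0.0624). Control replicate 1 also moved the number of genes called lower, to 9 without it, through *Npc2* (-0.0609), *Atp6v0b* (-0.0882) and *Atp6v1h* (-0.0717).

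The labels number the samples 1 to 4 in both groups but do not tie equal numbers to a shared origin. Deviations of equally numbered samples correlated at 0.0628, 0.0977, 0.1263 and 0.0776, and not every sample correlated best with its own number, so the numbers were not used as pairs. A shared split was present. Replicates 1 and 4 correlated positively with replicates 1 and 4 of the other group (0.0628 to 0.1345). Replicates 2 and 3 did so with replicates 2 and 3 (0.0484 to 0.1263). All remaining correlations were negative (-0.1237 to -0.0356), and the labels give no source for the split. With the replicate block, 28 of the 47 were called, 22 higher and 6 lower, and 5597 of all genes; the median stayed at 0.0486.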
